A study of Mus musculus with 18 samples.

Results

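The Cyp2b and Cyp3a genes encode cytochrome P450 enzymes of the liver that oxidise drugs, steroids and bile acids. The 10 members described here were chosen by symbol, as the mouse Cyp2b genes Cyp2b9, Cyp2b10 and Cyp2b13 and the Cyp3a genes Cyp3a11, Cyp3a13, Cyp3a16, Cyp3a25, Cyp3a41a, Cyp3a44 and Cyp3a59, among 19057 gene symbols in the liver table. No measured value entered that rule. The table held 4 further symbols of these subfamilies, Cyp2b19, Cyp2b23, Cyp3a41b and Cyp3a57.

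Liver RNA of 18 male ICR mice aged 10 weeks was sequenced, with 3 mice in each of 6 groups. Con mice had regular diet and saline. STZ mice were injected with streptozotocin, a toxin of the insulin-producing beta cells that gives a model of type 1 diabetes. AOS mice were given alginate oligosaccharide, made from the seaweed polysaccharide alginate, at 10 mg/kg, and STZ+AOS mice had both agents. Con-FMT and A10-FMT mice were also injected with STZ and then received gut microbiota, from control donors in Con-FMT and from donors given AOS at 10 mg/kg in A10-FMT. The donor material was small intestine content pooled over mice, so the 3 recipients of a group do not carry separate donors. The 12 mice of the STZ, STZ+AOS, A10-FMT and Con-FMT groups thus share STZ, and no group received microbiota without it. ICR mice are outbred, and the labels give each library as 1 mouse.

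Transcription of Cyp2b and Cyp3a genes is switched on by nuclear receptors that sense drugs, bile acids and other small molecules: the constitutive androstane receptor CAR (gene Nr1i3), best known for Cyp2b10, and the pregnane X receptor PXR (gene Nr1i2), best known for Cyp3a11. Both bind DNA together with RXR, and the enzymes need electrons from P450 oxidoreductase (Por) and a heme group whose synthesis starts with Alas1. Some members differ by sex in the adult mouse, with Cyp2b9, Cyp2b13, Cyp3a16, Cyp3a41a and Cyp3a44 known as genes of the female liver, under the control of the growth hormone pattern.

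The members lie in 2 clusters. By the GENCODE annotation of GRCm38, Cyp2b10 is at chr7:25897620-25926624, Cyp2b13 at chr7:26061497-26096197 and Cyp2b9 at chr7:26173411-26210661, each on the plus strand with 9 exons in its longest coding transcript. Of the Cyp3a genes, Cyp3a13 stands apart at chr5:137892932-137921619. The others follow each other as Cyp3a16 at chr5:145436309-145469723, Cyp3a41a at chr5:145694049-145720136, Cyp3a44 at chr5:145773983-145805874, Cyp3a11 at chr5:145854426-145879964, Cyp3a25 at chr5:145977194-146009618 and Cyp3a59 at chr5:146079257-146113287. All 7 Cyp3a members have 13 exons, and Cyp3a59 alone among them is on the plus strand.

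The upstream sequences show how closely neighbours resemble each other. The part of this likeness in the levels of the genes was not tested. RefSeq sequence (GRCm38.p6) was read for the 250 bases before each start site, and bases that GENCODE places inside the gene were removed, which left 212 bases for Cyp2b10 and 249 for Cyp3a59. Positions are counted from 1 at the 5′ end of the window. Cyp2b9 (chr7:26173159-26173408) and Cyp2b13 (chr7:26061245-26061494) differed at 2 of 250 bases, T48C and C104T, which are in capitals. Cyp2b10 (chr7:25897408-25897619) is shown beside them because it was 75.8% identical to either over 240 aligned bases of the untrimmed window.
Cyp2b9: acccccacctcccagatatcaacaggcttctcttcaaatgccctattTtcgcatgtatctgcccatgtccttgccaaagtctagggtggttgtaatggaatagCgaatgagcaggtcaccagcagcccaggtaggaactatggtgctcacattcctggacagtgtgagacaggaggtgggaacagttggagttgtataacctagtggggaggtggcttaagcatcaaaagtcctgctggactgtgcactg
Cyp2b13: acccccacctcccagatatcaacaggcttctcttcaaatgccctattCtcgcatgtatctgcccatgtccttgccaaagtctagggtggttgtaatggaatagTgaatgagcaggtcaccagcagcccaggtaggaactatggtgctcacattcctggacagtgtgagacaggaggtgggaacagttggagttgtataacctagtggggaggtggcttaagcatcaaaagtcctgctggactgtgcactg
Cyp2b10: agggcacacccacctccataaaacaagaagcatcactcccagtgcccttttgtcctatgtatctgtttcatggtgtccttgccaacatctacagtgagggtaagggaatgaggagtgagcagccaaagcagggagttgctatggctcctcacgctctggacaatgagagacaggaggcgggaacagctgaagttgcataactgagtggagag

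Cyp3a25 (chr5:146009619-146009868, minus strand) and Cyp3a59 (chr5:146079008-146079256, plus strand) were 95.6% identical over 249 aligned bases. Capitals mark AGGTCA, the half-site to which nuclear receptors bind, on either strand. Both windows hold it 2 times, once on each strand, at positions 75 and 96 in Cyp3a25 and at 74 and 95 in Cyp3a59.
Cyp3a25: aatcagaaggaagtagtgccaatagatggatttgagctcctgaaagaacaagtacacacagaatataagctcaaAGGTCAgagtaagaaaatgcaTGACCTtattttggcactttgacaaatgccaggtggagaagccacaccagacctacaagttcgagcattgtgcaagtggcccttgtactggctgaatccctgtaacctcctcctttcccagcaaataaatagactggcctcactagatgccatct
Cyp3a59: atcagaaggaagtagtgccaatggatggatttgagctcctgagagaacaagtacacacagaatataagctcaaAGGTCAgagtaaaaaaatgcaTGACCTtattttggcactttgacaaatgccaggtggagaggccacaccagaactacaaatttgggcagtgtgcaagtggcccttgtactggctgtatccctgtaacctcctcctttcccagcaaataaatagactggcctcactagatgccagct

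Cyp3a41a (chr5:145720137-145720386) and Cyp3a44 (chr5:145805875-145806124), both on the minus strand, differed at 14 of 250 bases, in capitals below. One difference, C104T, gives Cyp3a44 an AGGTCA at position 101 that Cyp3a41a lacks. Cyp3a41a in turn has AGTTCA at position 121 and CAAAGTCCA at position 156, both described below, which Cyp3a44 lacks through A124G and C162A.
Cyp3a41a: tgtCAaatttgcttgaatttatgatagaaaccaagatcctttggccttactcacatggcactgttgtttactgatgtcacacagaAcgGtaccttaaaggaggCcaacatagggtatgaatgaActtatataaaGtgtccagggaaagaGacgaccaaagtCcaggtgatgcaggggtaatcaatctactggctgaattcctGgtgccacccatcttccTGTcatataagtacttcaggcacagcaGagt
Cyp3a44: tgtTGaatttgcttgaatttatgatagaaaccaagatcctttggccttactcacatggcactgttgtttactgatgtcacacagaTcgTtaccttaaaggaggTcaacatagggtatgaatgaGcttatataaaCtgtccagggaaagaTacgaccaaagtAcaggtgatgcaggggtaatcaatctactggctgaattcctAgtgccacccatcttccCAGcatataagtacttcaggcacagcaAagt

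Of the 10 members, 6 had AGGTCA on either strand in the untrimmed window (Cyp2b9, Cyp2b13, Cyp3a11, Cyp3a25, Cyp3a44 and Cyp3a59), against 13.8% of 27025 RefSeq windows of the same length. The variant AGTTCA was in 2 members, Cyp3a11 and Cyp3a41a, against 11.9% of all windows. CAAAGTCCA, the form bound by HNF4 and its relatives, was in 3 members (Cyp3a11, Cyp3a16 and Cyp3a41a) and in 0.381% of all windows. TTCNNNGAA, the palindrome of STAT factors such as the growth hormone mediator STAT5, was in 0 members and 7.18% of windows. These matches are of letters only, in windows that the related members share by descent, and the drug-responsive enhancer of Cyp2b10 lies farther upstream than the window.

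Likeness of transcripts bears on the values, since the mapping setting of the study reports every match of a read that fits several genes. How such reads were then counted is not given in the sources used here. RPKM is the number of reads per kilobase of transcript, scaled to the mapped reads of the library, so levels of different genes can be compared per length. Between longest coding transcripts, Cyp3a25 and Cyp3a59 were 97.0% identical, and 24.6% of the 50-base stretches of Cyp3a25 occur unchanged in Cyp3a59. Cyp3a41a was 99.9% identical to its copy Cyp3a41b, which holds 93.7% of its 50-base stretches. Cyp2b9 and Cyp2b13, so alike upstream, were 91.9% identical as transcripts and shared 10.8% of such stretches, while Cyp3a13 shared 0 with any gene of either subfamily. The split of reads within the pairs Cyp3a25 and Cyp3a59, and Cyp3a41a and Cyp3a41b, is therefore uncertain.

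**Figure D1:**
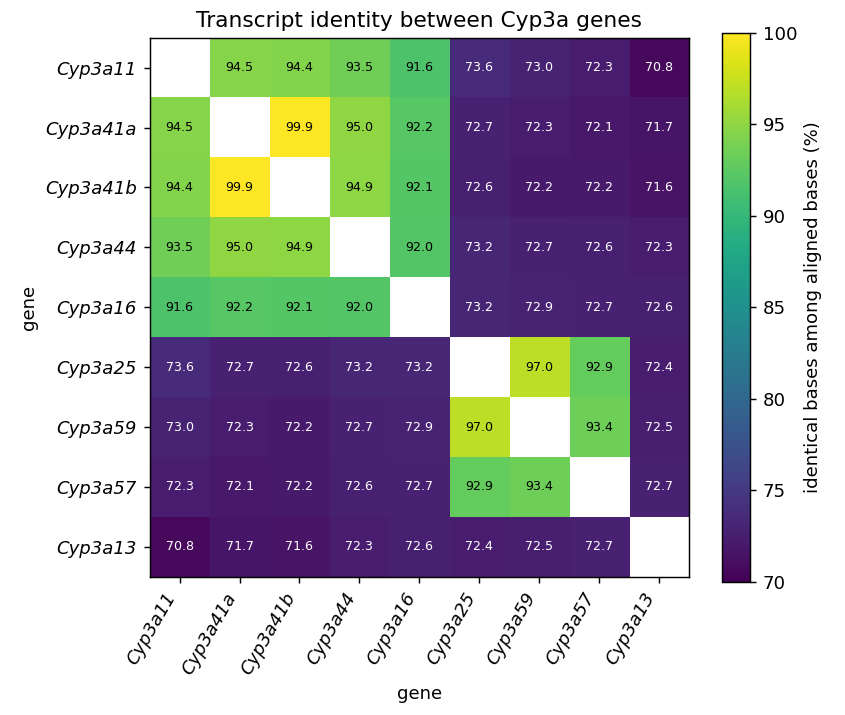
Percent of identical bases between the longest coding transcripts of 9 Cyp3a genes, as a colour scale with the value in each cell; gaps are not counted. Cyp3a11, Cyp3a41a, Cyp3a41b, Cyp3a44 and Cyp3a16 form a group at 91.6 to 99.9%, and Cyp3a25, Cyp3a59 and Cyp3a57 another at 92.9 to 97.0%.

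Libraries were checked before the comparisons. Summed RPKM was 717904 to 806937 in the 6 Con and AOS libraries and 621121 to 712798 in the 12 with STZ, and 9955 to 10409 genes reached 1 RPKM. Con 3 had values between those of Con 1 and Con 2 in 95.4% of 367 genes that varied in that group (range over 0.4 on the log2 scale after centring), and AOS 3 lay between AOS 1 and AOS 2 in 90.5% of 241 genes, against 1.6 to 61.1% for the other libraries. The cause was not tested, and counts are also given without both. For the members themselves, Con 3 was the middle value in 4 of the 8 with 3 different values and AOS 3 in 7 of 9. STZ 1 had the lowest level of 4 of 4 Y-linked genes measured, with Ddx3y at 8.57 RPKM against at least 10.29 elsewhere, and STZ+AOS 3 had exocrine pancreas RNA, with 6 digestive enzyme genes summing to 75.6 RPKM against at most 2.46 in any other library. Counts are given without these as well. Hepatocyte markers were abundant everywhere, at a summed 44795 RPKM or more, but were at 60138 to 76666 RPKM in Con and 45174 to 56364 in STZ. Of 7 markers, 4 were called lower in STZ (Serpina1a, Serpina1c, Ttr and Apoa1), where 5.25% of all genes were. Alb differed by -0.01 on the log2 scale. Fewer cells of a type cannot be told apart from less RNA per cell. Summed stellate cell markers were 74.3 to 85.9 RPKM in Con and 111 to 136 in STZ. Summed Kupffer cell markers were 64.3 to 96.7 RPKM and 96.2 to 212 RPKM. Of 8 markers in each list 2 were called higher in STZ, where 30.8% of all genes were. The median log2 difference was 0.10 for the stellate list and 0.56 for the Kupffer list, against 0.21 over all genes. The stellate sum thus rose while its typical marker hardly differed. The part of these markers in the results was not tested.

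Cyp3a11 dominated both subfamilies. It made up 78.7 to 85.5% of the summed RPKM of the 7 Cyp3a members in Con mice and 71.7 to 89.2% in the 12 mice with STZ. The Cyp3a sum was 2172 to 3023 RPKM in Con, and the Cyp2b sum 1.69 to 11.9 RPKM. In the 12 mice with STZ the sums were 4409 to 9329.7 and 42.1 to 582 RPKM, so the Cyp3a level was 254 to 1285 times the Cyp2b level in Con and 7.58 to 136 times with STZ. Within Cyp2b the balance also differed between mice, with Cyp2b10 at 5.97 to 62.3% of the sum in the 12 mice with STZ.

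The first question was which members differed between STZ and Con mice. Levels were compared with limma on log2(RPKM + 1), where a change understates that of genes near or under 1 RPKM, and a gene was called at a Benjamini-Hochberg adjusted p under 0.05 over 10822 tested genes. Of the 10 members, 8 were called and all 8 were higher in STZ, where 36.1% of all genes were called and 30.8% were called higher. Of the 10, 4 (Cyp2b13, Cyp3a16, Cyp3a41a and Cyp3a44) entered the test only through mice with STZ. Among the other 6, 5 were called higher, and Cyp3a13 was not. For 9 members every STZ mouse was above every Con mouse, an order that 40.6% of all genes had. The 4 members that entered only through mice with STZ are among these 9. All genes together shifted by a median of 0.21 on the log2 scale in this comparison, and after median-ratio scaling of the libraries the shift was -0.01, called genes went from 3336 higher and 568 lower to 1319 higher and 1319 lower, and 6 members were called, all higher. Without Con 3 and AOS 3, and likewise without STZ 1 and STZ+AOS 3, 7 members were called.

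Cyp2b9, an enzyme of the female liver that hydroxylates steroids, was at 0.92, 9.87 and 4.18 RPKM in Con mice and at 464.84, 214.05 and 153.47 RPKM in STZ mice. The groups did not overlap, and the lowest STZ mouse was far above the highest Con mouse. The difference was 5.71 ± 0.77 on the log2 scale (SE, n = 3 per group, adjusted p = 1.5e-04), which is 52.3-fold on the RPKM + 1 scale.

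Cyp2b10, the classic gene of phenobarbital induction, was at 0.62, 1.42 and 1.55 RPKM in Con and 39.03, 25.30 and 26.73 RPKM in STZ. The 3 STZ mice were close to each other and all above Con, by a log2 difference of 3.84 ± 0.49 (adjusted p = 1.0e-04).

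Cyp2b13, the female-type relative of Cyp2b9, was at 0.15, 0.61 and 0.12 RPKM in Con and at 77.78, 23.79 and 30.61 RPKM in STZ. It was under 1 RPKM in every Con mouse and above 20 RPKM in every STZ mouse, with a log2 difference of 4.95 ± 0.94 (adjusted p = 0.00131). STZ 1 was the highest STZ mouse for all 3 Cyp2b genes.

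Cyp3a11, the main Cyp3a enzyme of the mouse liver, was at 1709.56, 2584.95 and 2082.28 RPKM in Con and 3160.43, 3595.16 and 8227.58 RPKM in STZ. The groups did not overlap, and STZ 3 stood apart at more than the other STZ mice. The log2 difference was 1.11 ± 0.30 (adjusted p = 0.0110). The call was lost without Con 1 (0.97, adjusted p = 0.0525), under median-ratio scaling (0.85, adjusted p = 0.0559) and when only these groups were fitted (adjusted p = 0.0792).

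Cyp3a25 was at 418.93, 397.77 and 414.73 RPKM in Con and 765.05, 886.40 and 1028.63 RPKM in STZ, a log2 difference of 1.11 ± 0.17 (adjusted p = 3.3e-04). Its near copy Cyp3a59 was at 15.84, 17.04 and 17.81 RPKM in Con and 50.52, 34.41 and 36.61 RPKM in STZ, a log2 difference of 1.20 ± 0.27 (adjusted p = 0.00351). Both genes were separated between the groups and kept their calls in all alternatives, at log2 differences of 0.93 to 1.30 for Cyp3a59. The log2 differences of these genes were within 1 SE of each other.

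Cyp3a41a, Cyp3a44 and Cyp3a16, the female-type Cyp3a genes, differed widely between STZ mice. Cyp3a41a was at 0.17, 0 and 0 RPKM in Con and 256.15, 9.64 and 0.70 RPKM in STZ, so that STZ 1 carried most of its RNA and STZ 3 was near Con. Its log2 difference of 3.99 ± 1.43 was called (adjusted p = 0.0402), but not after leaving out Con 1, Con 2, Con 3, STZ 1 or STZ 2 (adjusted p = 0.0721 to 0.2119), and it was 2.01 without STZ 1. All 3 other scalings (adjusted p = 0.0581 to 0.0684) and testing with no filter (adjusted p = 0.0756) also removed the call. It held in 5 of 16 alternatives.

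Cyp3a44 was at 0.59, 0.30 and 0.50 RPKM in Con and 78.47, 5.39 and 6.77 RPKM in STZ. All 3 STZ mice were above Con, and STZ 1 again stood far above the others. The log2 difference was 3.44 ± 0.67 (adjusted p = 0.00162) and was still 2.27 without STZ 1. Cyp3a16 was listed at 0 in all 6 Con and AOS libraries and at 32.40, 1.26 and 0.04 RPKM in STZ, and was not called (adjusted p = 0.0576).

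STZ 1, highest of all mice for Cyp3a44 and Cyp3a16, is the one with the lowest Y-linked RNA. STZ+AOS 2, highest of all mice for Cyp3a41a at 289.22 RPKM, had Ddx3y, 1 of the Y-linked genes, at 15.79 RPKM, the highest of all libraries. The part of the Y-linked levels in the values of either mouse was not tested. Cyp3a11, which shares 6.32% of its 50-base stretches with Cyp3a41a, was at 1709.56 to 3084.52 RPKM in the 6 Con and AOS mice, where Cyp3a41a was at most 0.28 RPKM and Cyp3a16 was listed at 0. The highest Cyp3a11 of all libraries, in STZ 3, came with 0.70 RPKM of Cyp3a41a and 0.04 of Cyp3a16. The part of shared reads in the values of these genes was not tested.

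Cyp3a13, which is expressed in liver and gut and shares no stretch with the others, was at 27.01, 23.35 and 27.27 RPKM in Con and 66.05, 23.87 and 29.33 RPKM in STZ. The groups overlapped, with STZ 1 alone well above Con. The log2 difference was 0.46, with a 95% interval of -0.32 to 1.25 (adjusted p = 0.3388).

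**Figure D2:**
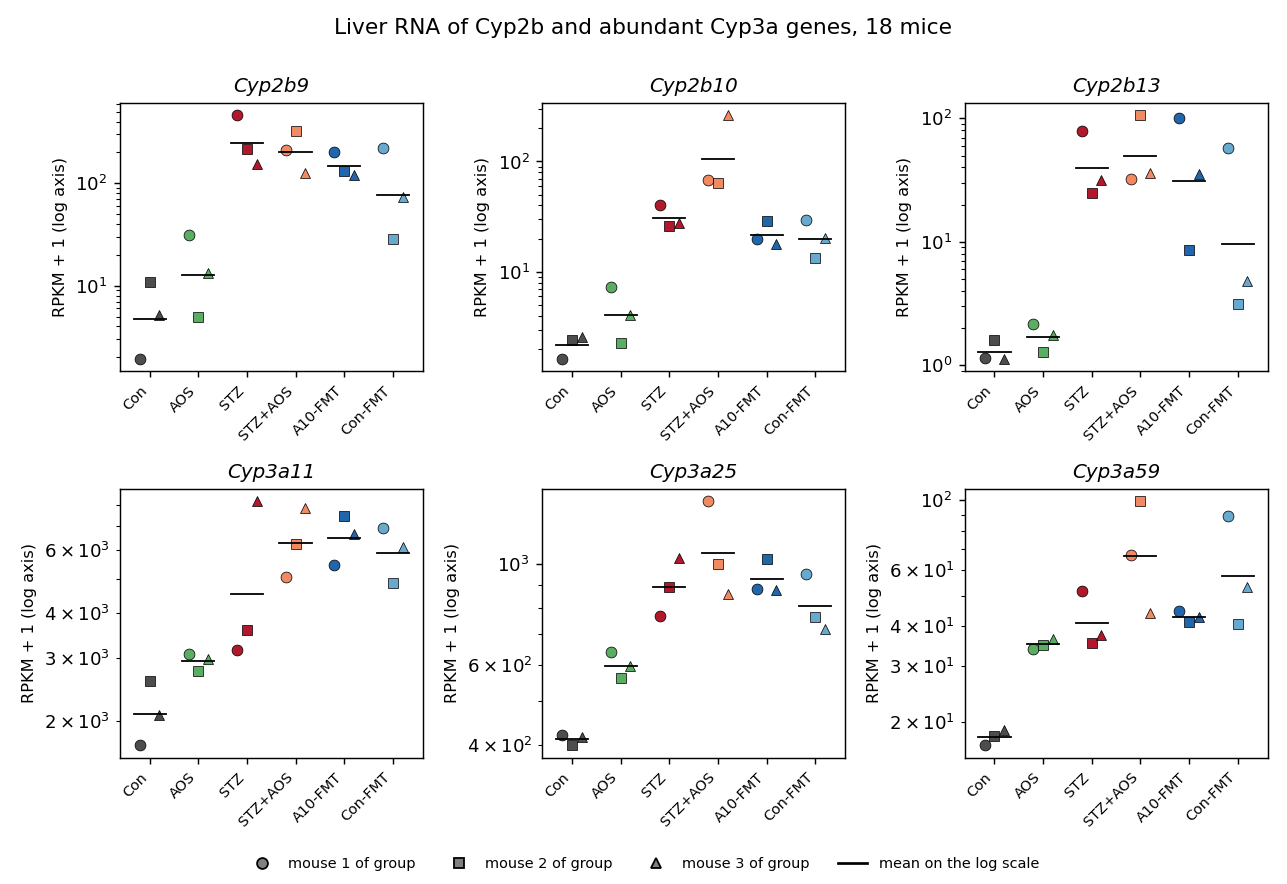
RPKM + 1 on a log axis of 6 genes in 18 mice by group; symbols give the mouse number within a group and lines the mean on the log scale. Each gene is higher in all 3 STZ mice than in all 3 Con mice, by far the most for the Cyp2b genes, with Cyp2b10 at 263.69 RPKM in STZ+AOS 3.

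**Figure D3:**
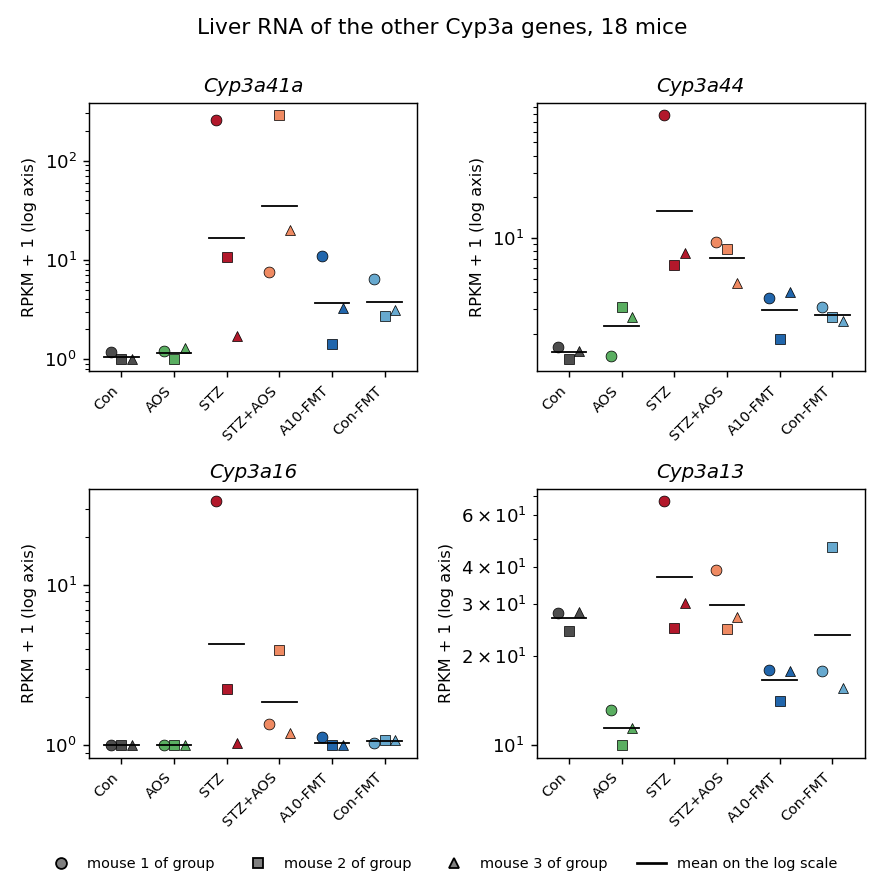
RPKM + 1 on a log axis of the other 4 Cyp3a genes in 18 mice, with symbols and lines for mouse number and log-scale mean. Cyp3a41a reaches 256.15 RPKM in STZ 1 and 289.22 RPKM in STZ+AOS 2, Cyp3a16 and Cyp3a44 are highest in STZ 1, and Cyp3a13 is lowest in AOS mice.

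The same question was asked in 6 other mice, STZ+AOS against AOS. Here 8 of 10 members were called, all higher, where 37.9% of all genes were called and 31.8% were called higher. The members called were Cyp2b9, Cyp2b10, Cyp2b13, Cyp3a11, Cyp3a13, Cyp3a25, Cyp3a41a and Cyp3a59, which hold all 6 that entered the test through untreated mice as well. All 10 members were without overlap and higher, against 40.5% of all genes. The 4 that entered only through mice with STZ are among them, and Cyp3a16 was at 0.20 to 2.96 RPKM against 0 in AOS. Median-ratio scaling, which changed all calls from 3441 higher and 661 lower to 1325 and 1329, left 6 members called, all higher, with Cyp3a11 and Cyp3a59 lost at adjusted p of 0.0545 and 0.0608. Without Con 3 and AOS 3 there were 7 calls, and without STZ 1 and STZ+AOS 3, which removed Cyp3a16 from the test, all 9 members left were called.

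Cyp2b10 was at 6.36, 1.25 and 3.06 RPKM in AOS and 66.95, 63.42 and 263.69 RPKM in STZ+AOS. The pancreas-marked library STZ+AOS 3 held the highest Cyp2b10 of all 18, and the part of the pancreas RNA was not tested. The log2 difference was 4.69 ± 0.49 (adjusted p = 2.9e-05), and 4.02 without STZ+AOS 3 (adjusted p = 5.0e-05).

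Cyp2b9 was at 30.27, 3.96 and 12.40 RPKM in AOS and 208.21, 322.27 and 124.64 RPKM in STZ+AOS, a log2 difference of 4.0 ± 0.77 (adjusted p = 0.00148). Cyp2b13 was at 1.14, 0.27 and 0.76 RPKM in AOS and 31.20, 105.87 and 35.03 RPKM in STZ+AOS, a log2 difference of 4.89 ± 0.94 (adjusted p = 0.00149). In both genes AOS 1 was the highest AOS mouse and STZ+AOS 2 the highest STZ+AOS mouse.

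Cyp3a11 was at 3084.52, 2759.41 and 2973.30 RPKM in AOS and 5058.74, 6250.86 and 7860.52 RPKM in STZ+AOS, a log2 difference of 1.10 ± 0.30 (adjusted p = 0.0114). Cyp3a25 was at 637.59, 559.16 and 595.63 RPKM and at 1373.91, 997.69 and 858.88 RPKM, a difference of 0.82 ± 0.17 (adjusted p = 0.00218). All STZ+AOS mice were above all AOS mice for both genes.

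Cyp3a59 was at 32.97, 33.93 and 35.39 RPKM in AOS and 66.24, 98.31 and 42.88 RPKM in STZ+AOS, a log2 difference of 0.92 ± 0.27 (adjusted p = 0.0145). STZ+AOS 2 was the highest, and without it the difference was 0.63 and no longer called (adjusted p = 0.0649).

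Cyp3a13 was at 12.10, 8.95 and 10.37 RPKM in AOS and 38.21, 23.63 and 26.19 RPKM in STZ+AOS. These STZ+AOS levels are within the range of Con and STZ mice, and it was the AOS mice that were low. The log2 difference was 1.38 ± 0.37 (adjusted p = 0.00975).

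Cyp3a41a was at 0.22, 0 and 0.28 RPKM in AOS and 6.49, 289.22 and 19.01 RPKM in STZ+AOS, a log2 difference of 4.92 ± 1.43 (adjusted p = 0.0147). STZ+AOS 2 held most of this RNA, and without that mouse the difference was 3.40 (adjusted p = 0.0665). Cyp3a44 was at 0.37, 2.15 and 1.65 RPKM in AOS and 8.34, 7.32 and 3.69 RPKM in STZ+AOS, above AOS in each mouse but not called (1.66 ± 0.67, adjusted p = 0.0627). Cyp3a16 was at 0.36, 2.96 and 0.20 RPKM in STZ+AOS.

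Whether the STZ difference itself varied with AOS was tested as an interaction. No member was called, nor was any of the 10822 genes, with 5.40% of all genes and 0 members at an unadjusted p under 0.05. For Cyp2b9 the STZ difference with AOS minus that without was -1.71 on the log2 scale, with a 95% interval of -4.02 to 0.60, and for Cyp3a11 the interval was -0.93 to 0.90. The intervals leave room for differences as large as several-fold in the Cyp2b genes.

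**Figure D4:**
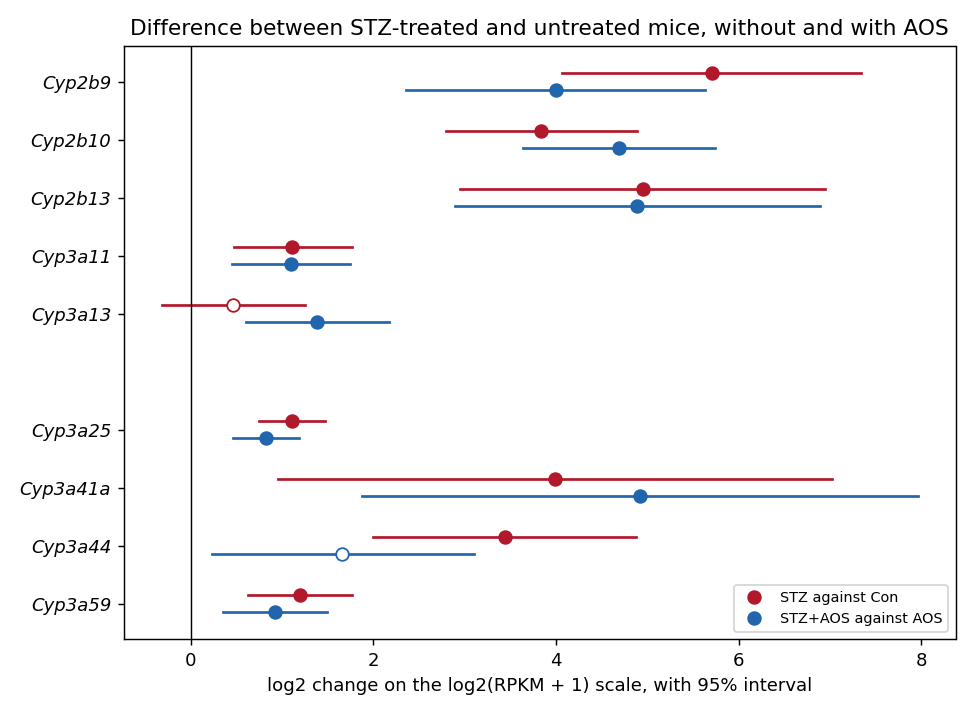
Log2 differences with 95% intervals for STZ against Con (red) and STZ+AOS against AOS (blue); filled circles passed the adjusted threshold and open ones did not. Cyp3a16 is left out because it is listed at 0 in Con and AOS. The 3 Cyp2b genes lie between 3.84 and 5.71, and Cyp3a11, Cyp3a25 and Cyp3a59 between 0.82 and 1.20.

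AOS alone was compared with Con. No member was called, and 1 gene of all tested was (0.00924%). Cyp3a59 was at 32.97 to 35.39 RPKM in AOS and 15.84 to 17.81 in Con, Cyp3a25 at 559.16 to 637.59 and 397.77 to 418.93, and Cyp3a11 at 2759.41 to 3084.52 and 1709.56 to 2584.95. In these 3 genes every AOS mouse was above every Con mouse, where 19.1% of all genes had that order. Cyp3a13 had the opposite order, at 8.95 to 12.10 RPKM in AOS and 23.35 to 27.27 in Con, where 5.24% of all genes did. The log2 differences were 0.97 ± 0.27 for Cyp3a59 (adjusted p = 0.5243), 0.54 ± 0.17 for Cyp3a25 (adjusted p = 0.5418), 0.49 ± 0.30 for Cyp3a11 (adjusted p = 0.7912) and -1.23 ± 0.37 for Cyp3a13 (adjusted p = 0.5243). When only AOS and Con were fitted, Cyp3a59 (adjusted p = 0.00463) and Cyp3a13 (adjusted p = 0.00899) were called among 41 genes, and neither was called in any other alternative. Of the Cyp2b genes, Cyp2b10 was at 1.25 to 6.36 RPKM and Cyp2b9 at 3.96 to 30.27 in AOS, and both overlapped Con. At an unadjusted p under 0.05 there were 3 members, Cyp3a59, Cyp3a13 and Cyp3a25, and 7.22% of all genes.

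STZ+AOS was compared with STZ to ask what AOS did in mice with STZ. No member and no gene was called (0.00%), while 6.07% of genes and 2 members, Cyp2b10 and Cyp3a59, had an unadjusted p under 0.05. Cyp2b10 alone did not overlap, with every STZ+AOS mouse (63.42 to 263.69 RPKM) above every STZ mouse (25.30 to 39.03 RPKM), an order found for 4.08% of genes. Its log2 difference was 1.77 ± 0.49 (adjusted p = 0.8064) and was 1.10 without STZ+AOS 3. Cyp3a59 was 0.70 ± 0.27 higher, with overlap between the groups. Cyp2b9, Cyp2b13, Cyp3a13 and Cyp3a41a differed by less than 1 SE.

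The recipients of microbiota were then set against STZ mice. None of the members was called in A10-FMT, where 0.490% of genes were, or in Con-FMT, where 0.166% were. These 2 comparisons share the 3 STZ mice. At an unadjusted p under 0.05 there were 3 members, Cyp3a13, Cyp3a16 and Cyp3a44, and 18.9% of genes in A10-FMT. In Con-FMT there were 4 members, Cyp2b9, Cyp2b13, Cyp3a16 and Cyp3a44, and 18.8% of genes. All these members were lower than in STZ. With overlap, Cyp2b9 differed by -1.69 ± 0.77 (adjusted p = 0.2545) and Cyp2b13 by -2.04 ± 0.94 (adjusted p = 0.2593) in Con-FMT. In A10-FMT they differed by -0.75 and -0.34. Cyp2b10 differed by -0.50 in A10-FMT and -0.62 in Con-FMT. Cyp3a44 was at 2.61, 0.82 and 3.02 RPKM in A10-FMT and 2.14, 1.62 and 1.49 in Con-FMT, below all STZ mice in both cases, while 13.9% of all genes were below without overlap in A10-FMT and 9.35% in Con-FMT. The log2 differences of Cyp3a44 were -2.41 ± 0.67 (adjusted p = 0.1042) and -2.53 ± 0.67 (adjusted p = 0.0979). Cyp3a13 was lower without overlap in A10-FMT, at 16.98, 13.11 and 16.81 RPKM (-1.16 ± 0.37, adjusted p = 0.1336), whereas in Con-FMT it was at 16.85, 45.90 and 14.57 RPKM.

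These comparisons turned on STZ 3, the mouse with high Cyp3a11 and low Cyp3a41a. Without it, 3 members were called in each, namely Cyp3a11 as higher (0.94, adjusted p = 0.0208 in A10-FMT, and 0.81, adjusted p = 0.0339 in Con-FMT), and Cyp3a44 (adjusted p = 0.0219 and 0.0167) and Cyp3a16 (adjusted p = 0.0200 and 0.0188) as lower. Over all genes, calls went from 53 to 1000 in A10-FMT and from 18 to 1322 in Con-FMT without STZ 3, but to 0 in both without STZ 2, and to 1 and 0 when only the compared groups were fitted. Of 27 genes of the male liver in the table, 25 were at their highest STZ level in STZ 3, among them Elovl3 at 12.03 RPKM against 0.19 and 0.06, and 23 were there still below all Con mice. The share of all genes that were highest in STZ 3 is not given here. Among 1430 genes that varied between STZ mice, STZ 3 was the middle value in 18.7%, so it was often an extreme.

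Against Con, both groups of recipients had 6 members called, all higher, and they were the same members: Cyp2b9, Cyp2b10, Cyp2b13, Cyp3a11, Cyp3a25 and Cyp3a59. The background was 17.1% of genes called in A10-FMT and 18.1% in Con-FMT, with 14.7 and 16.3% called higher. Median-ratio scaling changed the balance from 1589 higher and 259 lower to 522 and 497 in A10-FMT, and from 1768 and 193 to 361 and 355 in Con-FMT. Both comparisons use the same 3 Con mice. Without overlap, 8 members were higher and 1, Cyp3a13, was lower in A10-FMT (41.2 and 7.13% of all genes), and 9 were higher in Con-FMT (40.1%). Both counts of higher members include Cyp2b13, Cyp3a41a and Cyp3a44, which entered the test only through mice with STZ. The Con-FMT count also includes Cyp3a16, at 0.04 to 0.08 RPKM against 0 in Con. Of the 6 members that entered the test through untreated mice, 5 were called higher in either group.

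Cyp2b9 was at 199.13, 131.88 and 120.44 RPKM in A10-FMT and 219.37, 27.67 and 71.66 RPKM in Con-FMT, against at most 9.87 RPKM in Con. The log2 differences from Con were 4.96 ± 0.77 (adjusted p = 0.00102) and 4.02 ± 0.77 (adjusted p = 0.00472). Con-FMT 2 was the lowest of all 12 mice with STZ for this gene.

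Cyp2b10 was at 18.93, 27.95 and 16.84 RPKM in A10-FMT and 28.78, 12.29 and 19.19 RPKM in Con-FMT, with log2 differences of 3.34 ± 0.49 (adjusted p = 7.6e-04) and 3.21 ± 0.49 (adjusted p = 0.00111). Cyp2b13 was at 98.88, 7.63 and 34.51 RPKM in A10-FMT (4.62 ± 0.94, adjusted p = 0.00564) and at 57.01, 2.16 and 3.83 RPKM in Con-FMT (2.91 ± 0.94, adjusted p = 0.0444). The Con-FMT call of Cyp2b13 was lost without Con 1, Con 2, Con 3, Con-FMT 1 or Con-FMT 3, and the difference was 1.62 without Con-FMT 1 (adjusted p = 0.2273). That call was also lost under all 3 other scalings (adjusted p = 0.0796 to 0.0943) and with no filter (adjusted p = 0.0831). Fitting fewer groups removed it as well (adjusted p = 0.0647 and 0.0687), and it held in 4 of 16 alternatives.

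Cyp3a11 was at 5463.52, 7464.78 and 6652.14 RPKM in A10-FMT and 6907.31, 4870.24 and 6127.05 RPKM in Con-FMT, all above Con, with log2 differences of 1.63 ± 0.30 (adjusted p = 0.00331) and 1.49 ± 0.30 (adjusted p = 0.00622). Cyp3a25 was at 879.06, 1026.01 and 874.98 RPKM and at 949.47, 764.81 and 719.44 RPKM, with differences of 1.17 ± 0.17 (adjusted p = 6.4e-04) and 0.97 ± 0.17 (adjusted p = 0.00269). Cyp3a59 was at 43.64, 40.31 and 41.73 RPKM and at 88.23, 39.56 and 52.04 RPKM, with differences of 1.26 ± 0.27 (adjusted p = 0.00681) and 1.69 ± 0.27 (adjusted p = 0.00140). The abundant Cyp3a genes of the recipients thus lay in the range of the STZ and STZ+AOS mice or close to it.

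The female-type Cyp3a genes were low in the recipients and were not called. Cyp3a41a was at 10.01, 0.42 and 2.25 RPKM in A10-FMT and 5.40, 1.69 and 2.12 RPKM in Con-FMT, above every Con mouse, and Cyp3a16 was at most 0.12 RPKM. A10-FMT against Con-FMT gave no call among the members or among all genes (0.00%), with 2.26% of genes and 0 members at an unadjusted p under 0.05. The 95% interval of the log2 difference was -0.93 to 1.17 for Cyp2b10, -0.51 to 0.78 for Cyp3a11 and -0.30 to 3.70 for Cyp2b13, so Cyp2b13 in particular was poorly resolved.

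**Figure D5:**
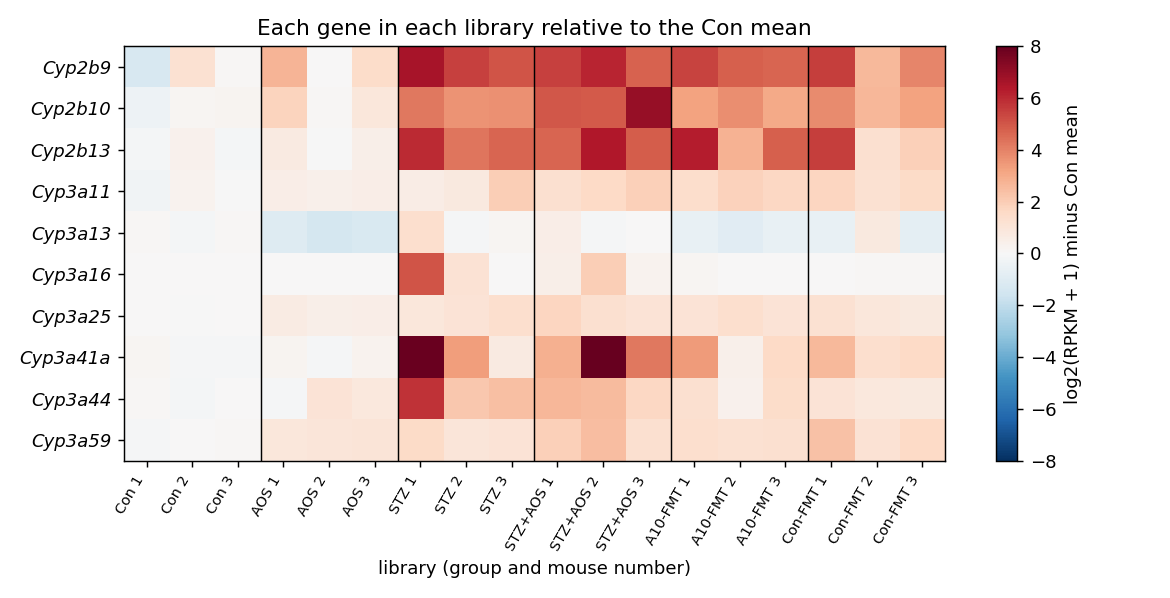
Log2(RPKM + 1) of each member in each of 18 libraries minus the Con mean, red for higher and blue for lower. All 12 libraries with STZ are red for Cyp2b9, Cyp2b10, Cyp3a11, Cyp3a25 and Cyp3a59, the darkest cells are Cyp3a41a in STZ 1 and STZ+AOS 2, and Cyp3a13 is blue in the AOS libraries.

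By the order of the group medians, Cyp2b10 was highest in STZ+AOS (66.95 RPKM), then STZ (26.73), Con-FMT (19.19), A10-FMT (18.93), AOS (3.06) and Con (1.42). The STZ, Con-FMT and A10-FMT groups overlapped, as did AOS and Con. Cyp3a11 ran from 6652.14 RPKM in A10-FMT through 6250.86 in STZ+AOS, 6127.05 in Con-FMT, 3595.16 in STZ and 2973.30 in AOS to 2082.28 in Con, and the 4 groups with STZ overlapped each other.

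Over the 18 libraries the members were compared by their correlation on the log2(RPKM + 1) scale. It is a description, since all share the difference between mice with and without STZ. Cyp2b9 and Cyp2b13 had r = 0.93, and Cyp2b9 and Cyp2b10 had r = 0.88. Cyp3a11 and Cyp3a25 had r = 0.83, while Cyp3a11 and Cyp3a16 had r = -0.07. Cyp3a25 had r = 0.87 with Cyp2b9 and 0.85 with Cyp2b10, and Cyp3a11 had r = 0.80 with Cyp2b10. The subfamilies were thus not separated. Cyp3a16, Cyp3a41a and Cyp3a44 had r of 0.80 to 0.86 with each other, resting on STZ 1 and few others. Among the genes outside the subfamilies, those with the highest r were Mafk (0.964), Zyx (0.962) and Rbbp7 (0.962) for Cyp2b10, Slco1a4 (0.978), Abcc3 (0.969) and Fmo1 (0.966) for Cyp2b9, and Sult2a7 (0.933), Golga7 (0.907) and Gpat4 (0.906) for Cyp3a11. Slco1a4 and Abcc3 encode transporters of organic anions and Fmo1 a flavin oxidase of drugs.

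The receptors and regulators of the members were counted from a list of 23, of which 22 were tested and 9 were higher in STZ than in Con, where 30.8% of all genes were, with a median log2 difference of 0.33 against 0.21 over all genes. Median-ratio scaling left 4 higher and 1 lower. PXR (Nr1i2) was at 19.51, 25.34 and 23.32 RPKM in Con and 48.73, 51.10 and 33.37 in STZ (0.92 ± 0.19, adjusted p = 0.00207), and Rxra, its partner, was 0.52 ± 0.11 higher (adjusted p = 0.00186). The coactivator Ppargc1a was at 0.56 to 0.77 RPKM in Con and 2.98 to 8.84 in STZ (1.86 ± 0.28, adjusted p = 3.3e-04).

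CAR (Nr1i3), added after its values were seen, was at 32.28, 61.13 and 47.25 RPKM in Con and 208.92, 128.67 and 78.94 in STZ (1.48 ± 0.32, adjusted p = 0.00316). Among the STZ mice, STZ 1 was highest for CAR and for each Cyp2b gene. In STZ+AOS CAR was at 115.86, 120.55 and 57.35 RPKM and was not called against AOS (0.66 ± 0.32, adjusted p = 0.1198), nor was PXR (0.37 ± 0.19, adjusted p = 0.1325). STZ+AOS 3, the pancreas-marked library with the highest Cyp2b10, had the lowest CAR of the 12 mice with STZ. The part of the CAR level in the Cyp2b values was not tested.

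Of 15 genes of electron supply and heme synthesis, 4 were higher in STZ and none lower, a share no larger than the 30.8% of all genes that were higher, with a list median of 0.23 against 0.21, and under median-ratio scaling 3 were higher and 5 lower. Por, which passes electrons to every microsomal P450, was at 37.59, 43.58 and 40.85 RPKM in Con and 551.64, 447.29 and 187.40 in STZ (3.11 ± 0.31, adjusted p = 1.7e-05), and was also higher in STZ+AOS than AOS (3.40 ± 0.31, adjusted p = 7.4e-06). Alas1 was 1.89 ± 0.45 higher in STZ (adjusted p = 0.00487), and Fech, which inserts the iron of heme, 0.76 ± 0.11 (adjusted p = 2.5e-04).

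Of 31 other genes known as targets of CAR or PXR, 21 were higher in STZ and 2 were lower, where 30.8% of all genes were higher and 5.25% lower. The median log2 difference was 0.94 against 0.21 over all genes, and median-ratio scaling left 17 higher and 3 lower. In STZ+AOS against AOS 19 were higher and 4 lower, where 31.8 and 6.11% of all genes were. The transporter Slco1a4 was at 2.78 to 8.43 RPKM in Con and 66.45 to 154.21 in STZ (4.18 ± 0.41, adjusted p = 1.6e-05), the glutathione transferase Gsta2 at 16.16 to 45.30 and 202.73 to 216.78 (2.86 ± 0.30, adjusted p = 2.8e-05), and the coumarin hydroxylase Cyp2a5 at 42.44 to 152.48 and 1466.46 to 6980.86 (5.20 ± 0.58, adjusted p = 4.3e-05). Aldh1a1 and Aldh1a7, closely related retinal and aldehyde dehydrogenases, were the 2 that were lower, by -0.69 and -0.66 on the log2 scale.

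Genes of the female liver other than the members went the same way as Cyp2b9 and Cyp2b13. Of 21 tested, 16 were higher in STZ and none lower, where 30.8% of all genes were higher. The median log2 difference of this list was 2.56 against 0.21 over all genes. Without STZ 1 and STZ+AOS 3, 15 of 20 were higher. The steroid hydroxylase Cyp17a1 was at 0.29 to 1.05 RPKM in Con and 25.63 to 97.63 in STZ (5.21 ± 0.79, adjusted p = 3.3e-04). Cyp2a4, whose reads are hard to separate from those of Cyp2a5, was 6.55 ± 0.90 higher (adjusted p = 1.6e-04). Of 26 genes of the male liver, 21 were lower and none higher, where 5.25% of all genes were lower, and the list median was -2.79. Without STZ 1 and STZ+AOS 3, 18 were lower. Elovl3 was at 208.98 to 239.45 RPKM in Con and 0.06 to 12.03 in STZ (-6.48 ± 0.81, adjusted p = 9.5e-05), and Capn8 (-2.54 ± 0.22, adjusted p = 6.8e-06) and Scara5 (-2.82 ± 0.36, adjusted p = 9.8e-05) were lower as well.

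Of 12 genes of growth hormone signalling, 3 were higher and 3 lower in STZ, where 30.8% of all genes were higher and 5.25% lower. The higher ones, named here after their values were seen, were the signal inhibitors Socs2 (1.47 ± 0.42, adjusted p = 0.0148) and Socs3 (1.07 ± 0.38, adjusted p = 0.0394) and the transcription factor Stat5b (0.29 ± 0.11, adjusted p = 0.0428). The lower ones were the growth hormone receptor Ghr (-0.98 ± 0.21, adjusted p = 0.00289), Igfals, which stabilises circulating IGF-1 (-1.20 ± 0.24, adjusted p = 0.00186), and Stat5a (-0.69 ± 0.16, adjusted p = 0.00406). Zonal genes were counted because Cyp2b and Cyp3a enzymes are mostly made around the central vein. Of 12 pericentral genes, 4 were higher and 1 lower, near the share over all genes, with Oat (3.39 ± 0.34, adjusted p = 1.6e-05), Lhpp (2.26 ± 0.27, adjusted p = 6.4e-05) and Rhbg (1.09 ± 0.25, adjusted p = 0.00412) named, and of 12 periportal genes 10 were higher and 1 lower, with Pck1 (2.76 ± 0.26, adjusted p = 1.2e-05), Cps1 (1.37 ± 0.16, adjusted p = 6.9e-05) and Gls2 (1.52 ± 0.19, adjusted p = 9.5e-05).

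Of the 4 further genes of the subfamilies, Cyp3a41b alone passed the filter. It was at 0.29, 0.69 and 0.34 RPKM in Con and 8.03, 1.32 and 1.45 in STZ and was not called (1.38 ± 0.53, adjusted p = 0.0546). Its highest libraries, STZ 1 and STZ+AOS 2 (7.75 RPKM), were also those of its near copy Cyp3a41a. Cyp3a57 was at most 1.01 RPKM, and Cyp2b19 and Cyp2b23 at most 0.13 RPKM.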

How the data were processed

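Liver RNA of 18 mice was sequenced by the authors from poly(A) RNA on an Illumina HiSeq instrument. By the methods of the study reads were mapped with SOAPaligner, while the submitters' processing notes name Bowtie 0.12.2 and mm10 without a role. The authors deposited 1 RPKM value per gene and library, with no read counts. The study's mapping setting reports all matches of a read, and how such reads were counted is not given in the sources used here. Depth in reads is unknown. The lowest steps of 49 genes gave relative depths of 0.940 to 1.074, in genes chosen for steps of near equal size.

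A gene was tested if 3 or more libraries of the 18 reached 1 RPKM. The 6 group means of log2(RPKM + 1) were fitted in R 4.3.3 by limma 3.58.1 with a mean-variance trend and two-sided tests, and Benjamini-Hochberg adjustment was made over all genes tested. All 10 members passed the filter. On simulated data, 191 of 200 genes changed by 2 on the log2 scale in STZ against Con were recovered, with 7 false calls among 10677 genes. The values ± are SE with n = 3 per group. Outside the members, genes are named by smallest adjusted p (at most 3 per list) or highest r. One gene that this rule names is not reported here. The rule for the members uses symbols alone, but members and lists were both chosen with earlier results of these data known. Upstream sequences are from RefSeq (all 10 members matched) and transcripts from GENCODE M21, aligned with Biopython 1.88. Alternatives were 3 other scalings, another pseudocount, 2 other filters, no trend, a replicate block, fewer groups, and each mouse left out; leaving out pairs of libraries was chosen after seeing the data. Mice shared numbers across groups, and neither labels nor methods describe a pairing.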

Additional observations from a re-analysis of the deposited data

How the results depend on the processing

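With at least 1 RPKM required in every library, 4 members were tested (9234 genes in all), so that counts of members called fell to 3 in STZ against Con, 4 in STZ+AOS against AOS, 3 in A10-FMT against Con and 3 in Con-FMT against Con. Fitting only the compared groups gave 2 in AOS against Con. Leaving out 1 mouse gave 6 to 9 members called in STZ against Con, 6 to 8 in STZ+AOS against AOS, 6 in A10-FMT against Con, 5 to 6 in Con-FMT against Con and 0 to 3 in both A10-FMT and Con-FMT against STZ (3 without STZ 3). In STZ+AOS against STZ, Cyp3a44 differed by -1.15, by -1.80 to 0.02 with 1 mouse left out (0.02 without STZ 1) and by 0.32 without STZ 1 and STZ+AOS 3. Among reported log2 differences of members, 1140 of the alternative values kept direction and call, 33 lost a call, 14 gained one and 2 changed sign.

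The replicate block gave 8 members and 3808 genes in STZ against Con and changed no count of members. Same-numbered pairs had r of -0.25 to 0.47, with 16 of 45 over 0.1, and 9 of 18 libraries were closest to their own number. No reference value was computed for these counts, so they cannot decide whether same-numbered mice were handled together. Over all genes, 3904 called in STZ against Con became 2412 without STZ 2 and 2464 without Con 3 and AOS 3, and 4102 in STZ+AOS against AOS became 2483 when only those groups were fitted and 2654 under median-ratio scaling. Against Con, A10-FMT ranged from 530 to 3355 genes and Con-FMT from 469 to 2128. Values under about 1 RPKM rest on few reads.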
